A study of Mus musculus with 18 samples.

Results

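RNA of epididymal white adipose tissue (eWAT) from caspase-6 knockout (C6KO) and wild-type (WT) mice was compared over all genes. The comparison used 6 of the 18 libraries of the series, 3 of each genotype, which were chosen by the depot and genotype in their labels. All mice were male, on a C57BL/6J background, and had eaten a 60% fat diet (HFD) over 12 weeks, begun at 10 to 14 weeks of age, and were fasted before tissue collection. C6KO mice lack Casp6 in every cell type of the body, and WT and C6KO mice were littermates from heterozygous parents. The other 12 libraries hold inguinal white fat (iWAT) and brown fat (BAT) of the same genotypes and diet, so no group of the series was lean or fed chow. The labels number the libraries of a group from 1 to 3 without saying whether each came from a different mouse, and p-values below measure the spread between libraries.

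Caspase-6 is a protease of the caspase family, best known as an executioner caspase that cuts structural proteins during apoptosis. Epididymal fat is the large visceral depot beside the testis, in which adipocytes store triglyceride in a droplet coated by perilipin, and lipases release it as fatty acids when catecholamines raise cyclic AMP. In obesity this depot gains macrophages and other leukocytes, and its vessels, matrix and mesothelial covering change with its size.

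The depot labels were checked against marker genes before any comparison. Wt1 and Upk3b, 2 genes of the visceral mesothelium, had medians of 19.2 and 61.8 CPM in eWAT (CPM are counts scaled to library size) and 0 in both other depots. Adipoq, the adipocyte hormone adiponectin, had a median of 1200 CPM in eWAT, and Ucp1, the uncoupling protein of brown fat, 0.687 CPM against 6220 CPM in BAT. The epididymis, which lies against this depot, left no mark in its defining genes: Lcn5, Crisp1, Spint4 and Gpx5 were at 0 counts in all 6 libraries, and Adam7 had 3 counts in 1 library.

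The eWAT libraries held 16717201 to 19139694 counts on exons. The 3 WT libraries correlated with each other at 0.978 to 0.982 (Pearson's r of log2 CPM, across genes, which are not independent replicates) and the 3 C6KO libraries at 0.965 to 0.976. A pair of libraries stood apart. C6KO 3 lay at -49.2 on a second principal component (24.28% of the variance) where the other 5 lay between -0.617 and 21.2, and WT 2 held summed levels of interferon-induced genes (3692 CPM) and of monocyte, dendritic cell and MHC class II genes (14150 CPM) above the other WT libraries (1734 and 1912 CPM, and 4956 and 5909 CPM). On the first component (39.18% of the variance) C6KO 3 lay at -2.25, beside -5.93 in WT 1 and 43.9 and 29.7 in C6KO 1 and 2. Some list medians below are also given without 1 of these libraries, and the other lists are given with all 6 libraries only.

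edgeR's quasi-likelihood test called 80 genes higher and 31 lower in C6KO eWAT of 14889 tested, or 0.537% and 0.208%, with 0.05 as the limit of the Benjamini-Hochberg adjusted p and 1.5 as the smallest fold change. A called gene is said below to have risen or fallen, and calls are edgeR's unless DESeq2 is named. With an unadjusted p below 0.05 and no fold change minimum, 1460 genes were higher (9.81%) and 1165 lower (7.82%), and DESeq2 at the same thresholds as edgeR called 429 higher and 189 lower (2.77% and 1.22% of 15479 genes). All 111 genes called by edgeR were called by DESeq2, showed no overlap between the groups, and kept their direction without any 1 library. They sat close to the threshold: 90 of the 111 had an adjusted p of 0.04 or more, and the count of calls depended on every library. It was 0 higher and 2 lower without WT 1, 1 and 3 without WT 2, 2 and 2 without WT 3, 19 and 7 without C6KO 1, 254 and 93 without C6KO 2, and 20 and 13 without C6KO 3. Of the 111 genes, Rpl34 and Rpl34-ps1 alone stayed called without each library in turn, and Cldn5 and Sox18 stayed called with them without WT 3. Every rise or fall described below, other than those of Rpl34 and Rpl34-ps1, was therefore not called without WT 1 or without WT 2.

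**Figure D1:**
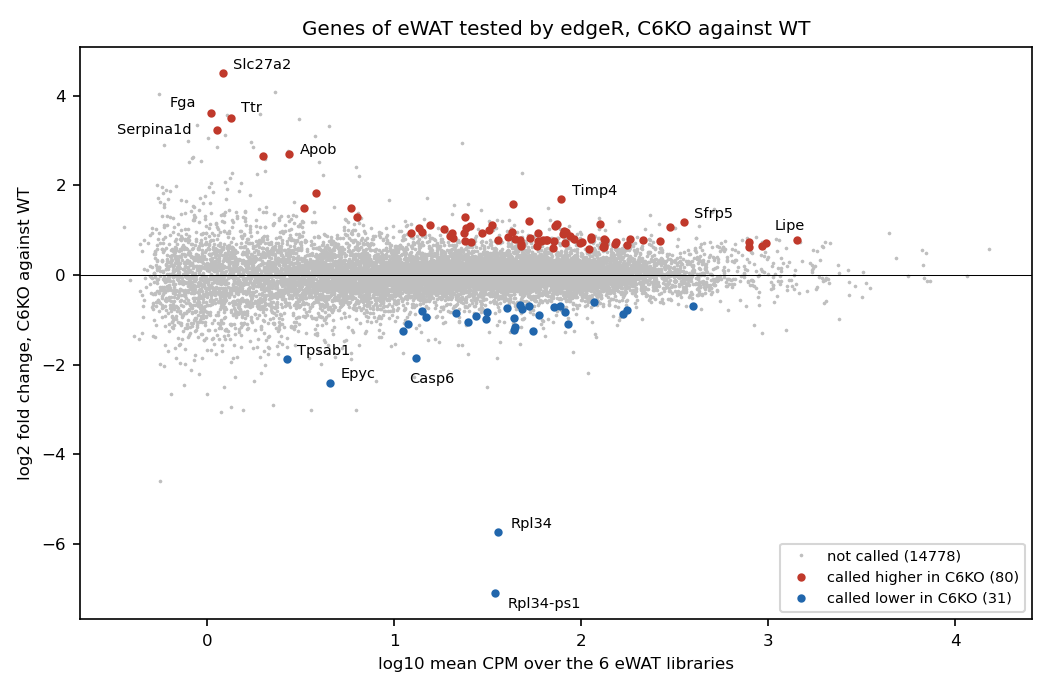
Each point is 1 of the 14889 genes tested in eWAT, with the log10 of its mean CPM over the 6 libraries on the x axis and its log2 fold change, C6KO against WT, on the y axis. Red points were called higher (80) and blue points lower (31). Among called genes, the largest increases sat at low mean levels (Slc27a2, Fga, Ttr, Serpina1d, at 1.34 CPM or less), and the largest decreases were Rpl34-ps1 and Rpl34.

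Casp6 was the targeted gene and fell in C6KO eWAT. WT 1 to 3 held 322, 422 and 331 of its counts and C6KO 1 to 3 held 100, 124 and 74, with no overlap, and the transcript was still detected in each C6KO library. The mean was 20.4 ± 2.26 CPM in WT and 5.65 ± 1.22 CPM in C6KO (SD, n = 3), a log2 fold change of -1.85 (SE 0.195, adjusted p = 0.0132 by edgeR's quasi-likelihood test). Without WT 1, 2 or 3 its adjusted p was 0.0645, 0.0828 and 0.0939. The counts cover all exons of 1 transcript (NM_009811, mm10 chr3:129901415-129914112), so reads on a deleted exon cannot be told apart from the rest.

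The deepest losses were of a neighbour of Casp6. Rpl34, which encodes a protein of the large ribosomal subunit and has its middle 0.821 Mb from that of Casp6 (mm10 chr3:130726827-130730337), went from 1181, 1463 and 1059 counts to 16, 29 and 24 in C6KO libraries. Its log2 fold change was -5.74 (SE 0.193, adjusted p = 1.46e-06). Rpl34-ps1, annotated over the same bases, went from 1156, 1436 and 1032 counts to 5, 7 and 14 in C6KO, and since both entries lie on the same reads, their separate values are uncertain. No other cytosolic ribosomal protein gene of the 75 tested was called, and the median log2 fold change of that list was -0.17.

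Other genes around Casp6 moved less than Rpl34. Within 10 Mb, 85 genes other than Casp6 were tested, of which 1 rose and 6 fell, where 0.537% and 0.208% of all genes did. The 6 include Rpl34 and Rpl34-ps1, which lie on the same reads. The median log2 fold change of the 85 was -0.03 beside -0.01 over all genes tested. Mcub, a subunit of the mitochondrial calcium uniporter that limits its current, lies next to Casp6, 0.035 Mb away, and had 33.9, 37.2 and 29.3 CPM in WT and 15.4, 19.3 and 13.7 CPM in C6KO (log2 fold change -1.05). Cenpe (-0.94), Dapp1 (-0.86) and Fnbp1l (-0.72) fell and Alpk1 (0.81) rose at 5.335, 8.049, 7.329 and 2.182 Mb. Cfi, which encodes complement factor I, 0.052 Mb from Casp6, had 1.98 CPM in WT and 10.5 CPM in C6KO, and its log2 fold change of 2.41 was not called (adjusted p = 0.142). On the rest of chromosome 3, 4 of 625 genes tested rose and 1 fell. Distance from Casp6 and loss of Casp6 cannot be told apart in this design, as every C6KO library carries the same allele.

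**Figure D2:**
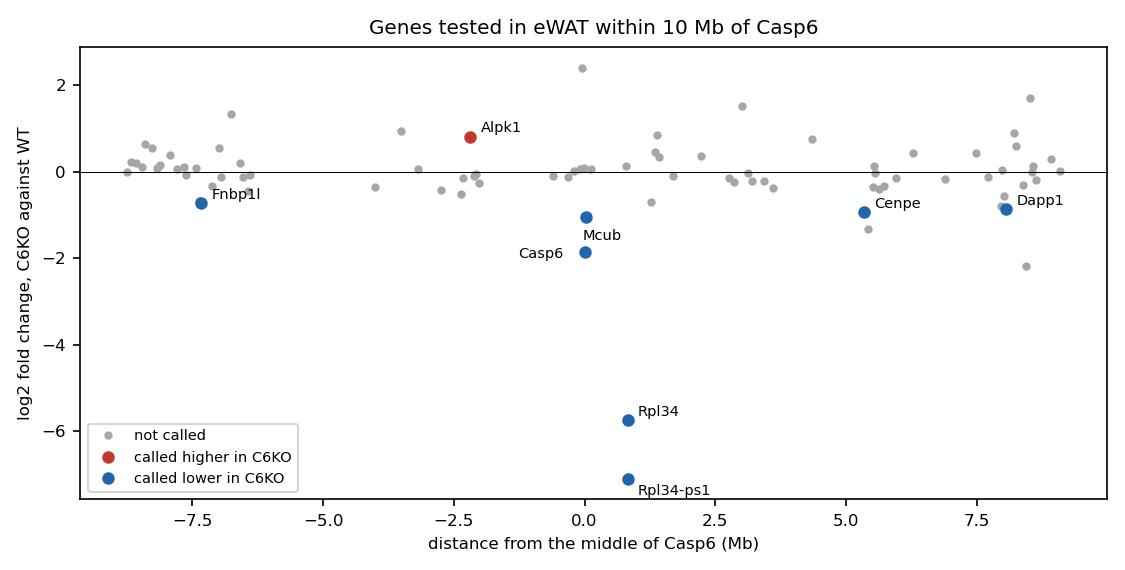
Genes tested within 10 Mb of Casp6 on chromosome 3, by the distance of their middle from the middle of Casp6 (x axis, Mb) and their log2 fold change in eWAT (y axis). Red and blue points were called higher and lower. Rpl34 and Rpl34-ps1 at 0.821 Mb lie at -5.74 and -7.10, while the other points, Casp6 at -1.85 among them, reach up to 2.41 (Cfi).

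Genes of the adipocyte stood higher in C6KO eWAT. Of 20 genes that mark adipocytes, 19 had a higher estimate, with a median log2 fold change of 0.63, and 2 were called, where 0.537% of all genes were called higher. By an unadjusted p below 0.05, 17 of the 20 were higher (9.81% of all genes), and DESeq2 called 13. The 2 that rose were Plin1, which encodes the perilipin that coats the lipid droplet and gates lipase access, and Adig, a small protein of adipocyte differentiation. Plin1 had 621, 625 and 634 CPM in WT and 1043, 961 and 884 CPM in C6KO, with the 3 WT libraries nearly equal and all C6KO libraries above them (log2 fold change 0.62, SE 0.114, adjusted p = 0.0468). The log2 fold changes of Adipoq (0.60), Cidec (0.73), Cfd (0.90) and Lep (0.53) came with no overlap between the groups and were not called (adjusted p = 0.12, 0.0546, 0.0571 and 0.16). Pparg, the master regulator of adipogenesis, had a log2 fold change of 0.30 (adjusted p = 0.149), and Cebpa one of 0.14.

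The summed level of the adipocyte genes differed between libraries of 1 genotype. The summed level of the 20 adipocyte genes was 25540 to 28280 CPM in WT, 40360 in C6KO 1, 37290 in C6KO 2 and 28230 in C6KO 3, so that C6KO 3 lay within the WT range. In bulk tissue, more adipocytes among the cells and more RNA of these genes per adipocyte cannot be told apart. Macrophage genes summed to 14810 to 19170 CPM in WT and 9789 to 11910 CPM in C6KO, and the part of either sum in the other was not tested.

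Lipolysis and lipid droplet genes leaned higher with few calls. Of 20 lipolysis and lipid droplet genes tested, 18 had a higher estimate, and the median was 0.60. Of the 20, 3 were called higher (0.537% of all genes), 13 were higher by unadjusted p (9.81% of all genes), and none was called lower. Lipe, the hormone-sensitive lipase that acts on diacylglycerol, had 741, 716 and 770 CPM in WT and 1299, 1238 and 1119 CPM in C6KO (log2 fold change 0.72, SE 0.116, adjusted p = 0.0432). Fitm2, an endoplasmic reticulum protein that partitions triglyceride into droplets, rose by 0.66 and Plin1, above, was the other. Pnpla2, which encodes ATGL, the lipase of the first step, had 1019, 893 and 1147 CPM in WT and 2039, 1680 and 1558 CPM in C6KO. Its groups did not overlap, and its log2 fold change of 0.79 (SE 0.151) missed the threshold at an adjusted p of 0.0524, while DESeq2 gave 1.63e-05. Mgll, the monoacylglycerol lipase of the last step, had a log2 fold change of 0.78 (adjusted p = 0.0588). Abhd5 and G0s2, the activator and the inhibitor of ATGL, had 0.30 and 0.48 and were not called, and neither was Sp1, with -0.06.

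The cyclic AMP pathway upstream of the lipases had 3 of 35 genes called higher and none lower, with a median of 0.33, where 0.537% of all genes were called higher. By unadjusted p, 18 of the 35 were higher and 3 lower (9.81% and 7.82% of all genes), and DESeq2 called 13 higher and none lower. Adcy6, an adenylyl cyclase, had 102, 96.5 and 110.2 CPM in WT and 171, 146 and 159 CPM in C6KO (log2 fold change 0.62). Mc2r, the receptor through which ACTH stimulates mouse adipocytes, rose by 0.87, and Rapgef3, which encodes the cyclic AMP sensor Epac1, by 0.94. Adrb3, the main β-adrenergic receptor of adipocytes, had 46.6, 30.4 and 51.8 CPM in WT and 86.7, 40.7 and 56.0 CPM in C6KO, with overlapping groups (0.51, adjusted p = 0.483).

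**Figure D3:**
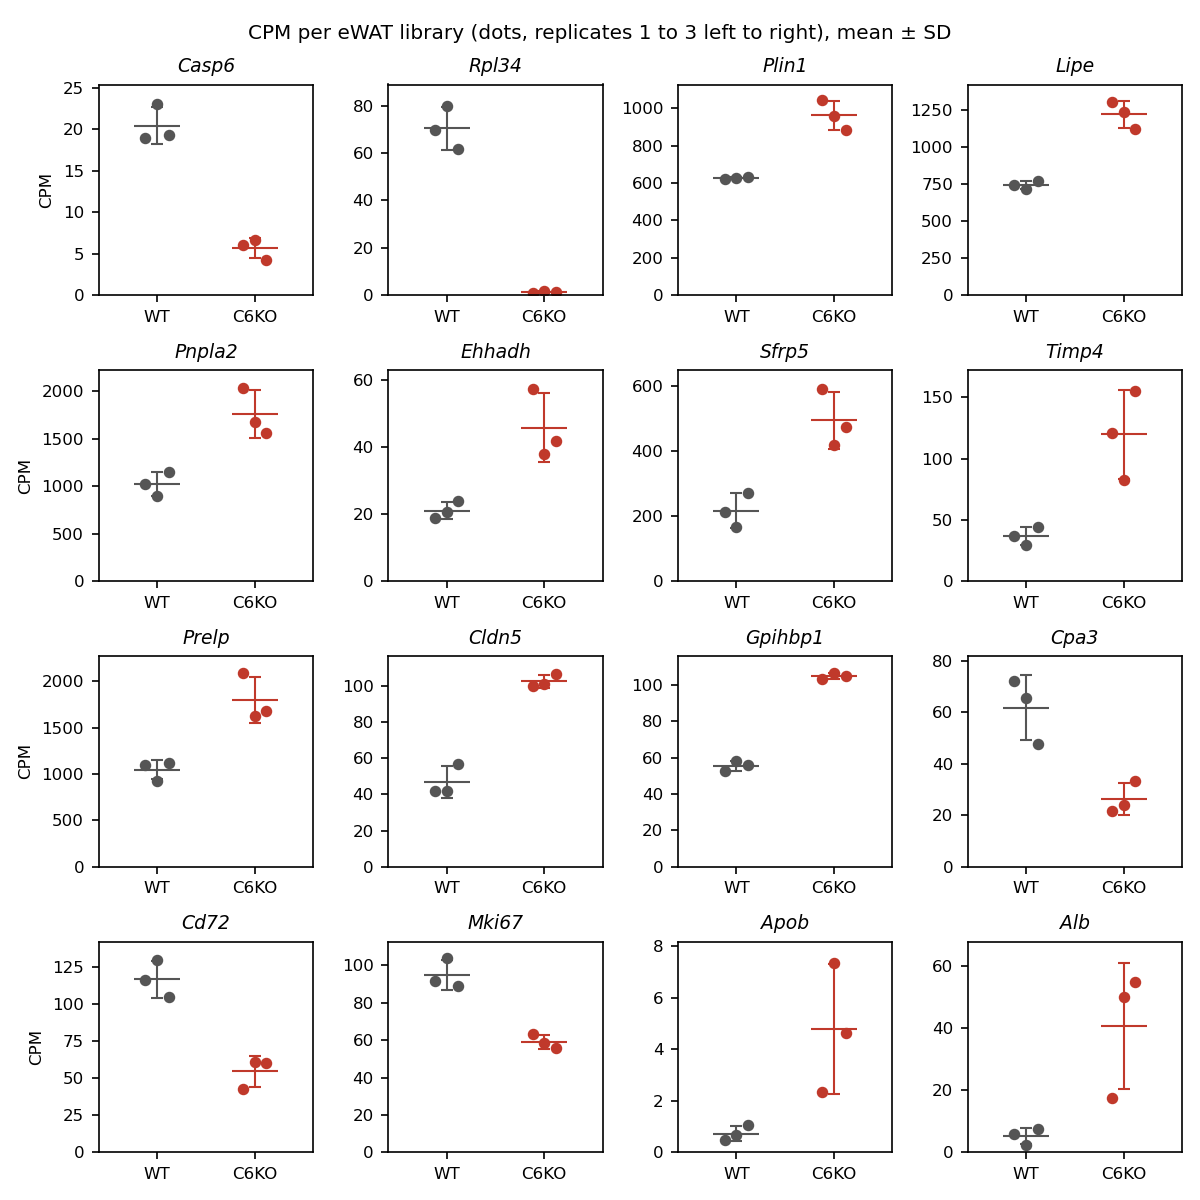
CPM of 16 genes in the 6 eWAT libraries, with WT in grey and C6KO in red. Dots are libraries with replicates 1 to 3 from left to right, and the bars give the mean ± SD. Each y axis starts at 0. In all of these genes the groups do not overlap, from Plin1 (621 to 634 against 884 to 1043 CPM) to Alb (2.46 to 7.41 against 17.5 to 54.8 CPM).

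The Plin1 promoter is shown because the gene belongs to the adipocyte, the droplet and the PPARγ target lists at once. The sequence is RefSeq's, from GRCm38.p6 at chr7:79732727-79733026 on the minus strand, written 5′ to 3′ from 250 bases before the start to 50 after it. Capitals mark 2 matches, on either strand, to TTGCNNAA, a core of the element bound by C/EBP proteins, which 10.8% of the 32851 promoters of the table hold.
Plin1: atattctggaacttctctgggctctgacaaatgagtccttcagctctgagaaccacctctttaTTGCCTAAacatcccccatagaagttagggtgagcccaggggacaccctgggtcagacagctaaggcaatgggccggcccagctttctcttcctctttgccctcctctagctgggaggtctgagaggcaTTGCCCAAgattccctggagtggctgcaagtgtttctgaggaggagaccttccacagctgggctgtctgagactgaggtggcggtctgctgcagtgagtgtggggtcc
AGGTCA, the half-site of nuclear receptors such as PPARγ, was not among the letters of this window.

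Fatty acid oxidation genes leaned higher with few calls. All 26 genes of mitochondrial fatty acid oxidation had a higher estimate (49.1% of all genes did), their median was 0.38, 16 were higher by unadjusted p, and 1 was called. That gene, Slc25a23, encodes a mitochondrial ATP-Mg/phosphate carrier rather than an enzyme of oxidation and had a log2 fold change of 0.75. Cpt1b, the carnitine palmitoyltransferase of muscle and brown fat, had 9.68, 8.90 and 10.3 CPM in WT and 15.7, 14.7 and 17.4 CPM in C6KO (0.72, adjusted p = 0.0571), whereas Cpt1a, the more abundant form here, stood at 0.04. Of 28 peroxisomal genes, Ehhadh, the bifunctional enzyme of peroxisomal β-oxidation, rose from 18.6, 20.6 and 23.7 CPM in WT to 57.3, 37.9 and 41.6 CPM in C6KO (1.12, adjusted p = 0.0419). DESeq2 called 5 of the 28 higher, and 15 were higher and none lower by unadjusted p. The 80 nuclear genes of the respiratory chain and ATP synthase had a median of 0.09 and no calls by edgeR or DESeq2, with 5 higher by unadjusted p. Among them Cox4i1 stood at 0.28 and Ndufv1 at 0.33. Ucp1 stayed at 1.04 CPM or below in 5 libraries and reached 6.13 CPM in C6KO 1 (adjusted p = 0.382).

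Of 31 PPARγ and PPARα target genes, 4 rose, where 0.537% of all genes were called higher. By unadjusted p, 24 were higher (9.81% of all genes) and none lower, and the median was 0.62. The 4 were Cyp4a10, an ω-hydroxylase of fatty acids, Ehhadh, Gpihbp1 and Plin1. The list shares genes with the lipolysis and oxidation lists, so these counts are not separate. Cyp4a10 went from 11, 7 and 10 counts to 26, 80 and 77 in C6KO (2.67, adjusted p = 0.0468). It was not tested where at least 10 counts were needed in every library. Among C6KO libraries it was lowest in C6KO 1, as were Alb, Apob and Fga, described with the liver transcripts. A shared source was not tested.

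In fatty acid uptake 2 of 22 genes rose, Slc27a2, described with the liver transcripts, and Gpihbp1. Of the 22, 8 were higher and none lower by unadjusted p, and DESeq2 called 3 higher. Gpihbp1, the endothelial protein that carries lipoprotein lipase to the capillary wall, had 52.6, 57.9 and 56.1 CPM in WT and 103, 106.6 and 105 CPM in C6KO, a narrow spread in both groups (0.92, SE 0.0939, adjusted p = 0.0132). Lpl itself stood at -0.02 and the fatty acid transporter Cd36 at 0.22. De novo lipogenesis had no calls by edgeR among 22 genes, 6 higher by unadjusted p and 3 called higher by DESeq2. Its main enzyme, Fasn, had 867, 910 and 833 CPM in WT and 833, 1730 and 308 CPM in C6KO, so the C6KO libraries lay on both sides of WT, and without C6KO 3 the median of the list moved from 0.14 to 0.41. Triglyceride synthesis had no calls by edgeR among 20 genes, 8 higher by unadjusted p and 2 called higher by DESeq2, with Dgat2 at 0.51 (adjusted p = 0.113), and cholesterol synthesis none by either tool among 23, with no member past an unadjusted p of 0.05. Branched-chain amino acid catabolism, a pathway of insulin-sensitive adipocytes, had no calls by edgeR among 26 genes, 13 higher by unadjusted p and 3 called higher by DESeq2 (median 0.33). In insulin signalling and glucose use 1 of 43 genes rose, Pdk2, a kinase that turns off pyruvate dehydrogenase (0.75), while the transporter Slc2a4 had 0.71 (adjusted p = 0.0655). DESeq2 called 8 of the 43 higher, and 13 were higher and none lower by unadjusted p.

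Secreted factors of fat had the highest median among the adipocyte lists, 0.68 over 24 genes, with 2 called higher and 1 lower. DESeq2 called 15 of the 24 higher and 1 lower, and 18 were higher and 2 lower by unadjusted p. Timp4, an inhibitor of matrix metalloproteinases, rose from 36.9, 29.6 and 44.5 CPM in WT to 121, 82.7 and 155.5 CPM in C6KO (1.70, SE 0.249, adjusted p = 0.0432). Sfrp5, a decoy for Wnt5a, rose from 212, 167 and 271 CPM to 590.3, 417 and 474.5 CPM (1.19, SE 0.195, adjusted p = 0.0436). Fndc5, the precursor of irisin, fell from 16.5, 18.03 and 14.2 CPM to 6.005, 8.59 and 8.18 CPM (-1.10). In Wnt and BMP signalling 3 of 47 genes rose and none fell: Sfrp5, the BMP-responsive regulator Id1 (1.05) and the R-spondin receptor Lgr4 (0.97). By unadjusted p, 13 of the 47 were higher and 4 lower (9.81% and 7.82% of all genes), and DESeq2 called 10 higher and 2 lower. Of 38 adipogenic transcription factors 1 rose, Zbtb16 (0.81), while 14 were higher and none lower by unadjusted p, and DESeq2 called 7 higher.

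Of 62 endothelial and angiogenesis genes, 8 rose (0.537% of all genes) and none fell, and 54 were higher by unadjusted p (9.81% of all genes) and none lower. DESeq2 called 35, and 45 had no overlap between the groups with C6KO higher (1787 of the 14889 genes tested did). The median log2 fold change was 0.62. Cldn5, the claudin of endothelial tight junctions, had 41.7, 41.8 and 57.0 CPM in WT and 100.3, 101 and 106.7 CPM in C6KO (1.13, SE 0.135, adjusted p = 0.0227). Sox18, a transcription factor of vessels and lymphatics, rose from 27.0, 26.9 and 41.9 CPM to 71.9, 71.8 and 77.2 CPM (1.21, SE 0.171, adjusted p = 0.0364). Tinagl1 (1.14), a matrix protein of vessels, Hspa12b (0.95), Gpihbp1 (0.92), Robo4 (0.78), Rasip1 (0.75) and Rgcc (0.74) were the others. The defining genes Pecam1, Cdh5 and Kdr had 0.41, 0.56 and 0.91, with no overlap between the groups, and were not called (adjusted p = 0.0757, 0.0632 and 0.125). The summed level was 3632 to 4517 CPM in WT and 5470 to 6907 CPM in C6KO, with no overlap. Among lymphatic genes, Mmrn1 rose from 4.01, 3.82 and 3.09 CPM to 8.29, 9.02 and 9.74 CPM (1.31), and among 16 pericyte and smooth muscle genes, all with a higher estimate, Mcam rose (0.77).

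Matrix genes went both ways. None of 34 collagens was called by edgeR, 9 were lower and 3 higher by unadjusted p, DESeq2 called 2 lower and 1 higher, and the median was -0.23. The fibrillar collagen Col3a1 had 4389, 3077 and 3700 CPM in WT and 2549, 3017 and 2364 CPM in C6KO (-0.49, adjusted p = 0.167), Col1a1 overlapped between the groups (-0.25), and the basement membrane collagen Col4a1 stood at 0.12. Of 61 proteoglycans and other matrix proteins 3 rose and 2 fell, where 0.537% and 0.208% of all genes did. Prelp, a leucine-rich proteoglycan that anchors basement membranes, was the most abundant of them, with 1100, 927 and 1116 CPM in WT and 2088, 1625 and 1686 CPM in C6KO (0.78, adjusted p = 0.0469), and Tinagl1 and Mmrn1 were named with the vessels. Epyc, a small proteoglycan known from cartilage, fell from 125, 118 and 157 counts to 14, 46 and 17 (-2.40, SE 0.397, adjusted p = 0.0432), and Srpx fell by 0.82 on the log2 scale. Of the 61, 15 were higher and 13 lower by unadjusted p (9.81% and 7.82% of all genes), and DESeq2 called 10 higher and 8 lower. Timp4 was edgeR's sole call among 45 matrix enzymes and inhibitors, 12 of which were higher and 3 lower by unadjusted p, and DESeq2 called 5 higher. Of the 13 laminins and nidogens edgeR called none, 3 were higher and 3 lower by unadjusted p, and DESeq2 called 1 higher. Adipocyte progenitor genes had no calls by edgeR among 27, 7 lower and 1 higher by unadjusted p, and 2 called lower and 1 higher by DESeq2, with Pdgfra at -0.09 and a median of -0.30.

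Mesothelial genes, which mark the covering of the depot, overlapped between the genotypes. Their summed level was 2945 to 4218 CPM in WT and 2437, 2244 and 3219 CPM in C6KO, and Upk3b had 77.2, 77.7 and 50.03 CPM in WT and 15.5, 29.8 and 70.3 CPM in C6KO. Neither edgeR nor DESeq2 called any of 19, of which 1 was higher and 1 lower by unadjusted p, and the median was -0.45, but -1.01 without C6KO 3 and -0.15 without C6KO 1.

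**Figure D4:**
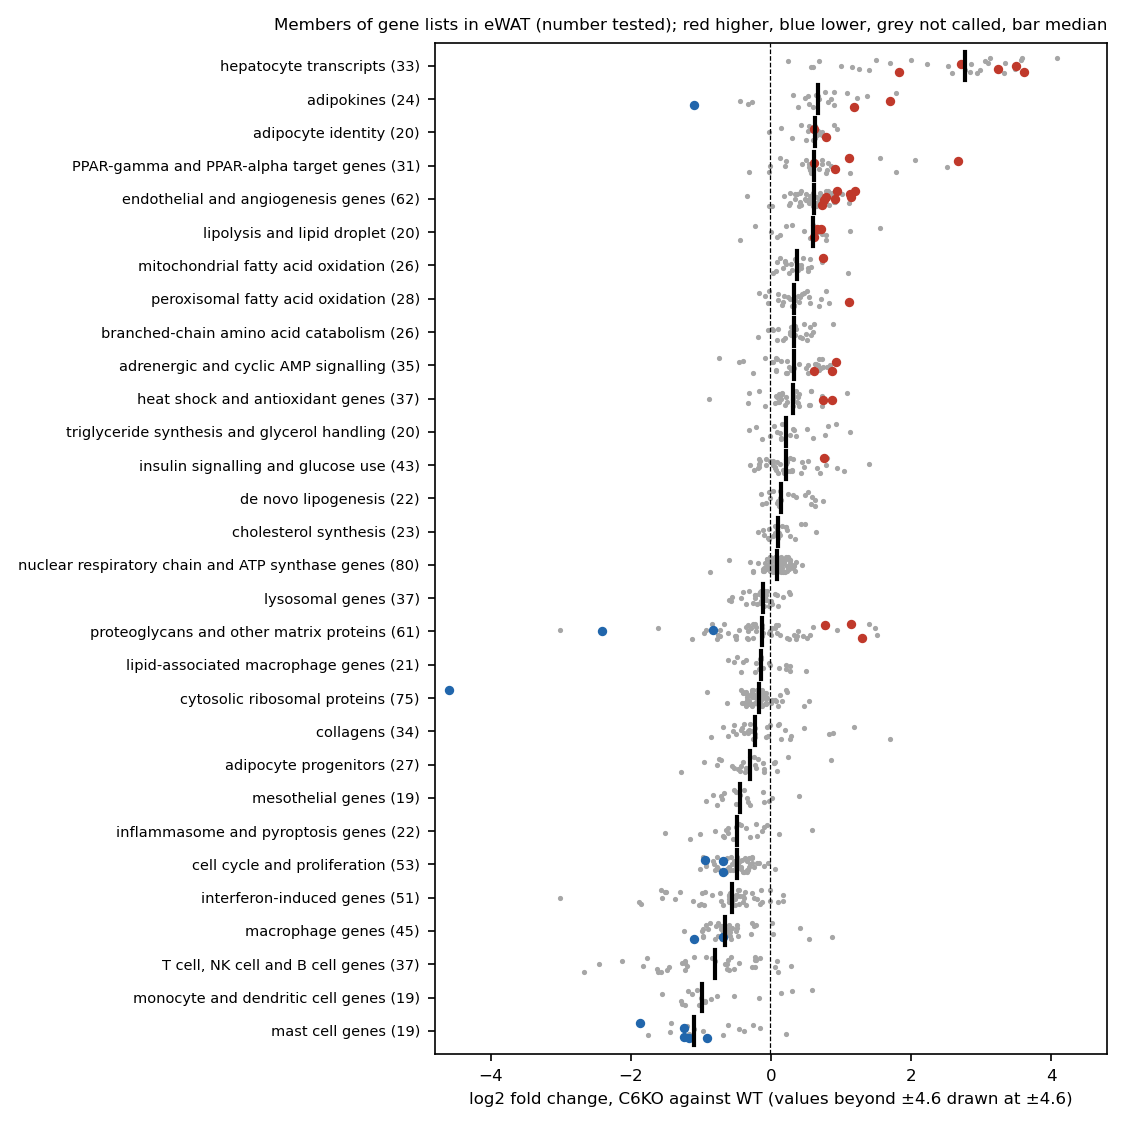
Log2 fold change, C6KO against WT (x axis), of the tested members of gene lists (y axis, number tested in brackets), ordered by median. Red points were called higher, blue lower, grey not called, the black bar is the median of the list, the dashed line the median of all genes tested, and values beyond 4.6 are drawn there. Hepatocyte transcripts lie highest (median 2.77 over the 33 that passed the filter, 1.16 over the 11 with at least 10 counts in every library) and mast cell genes lowest (-1.09), with adipocyte, lipolysis and endothelial lists near 0.6 and macrophage genes at -0.66.

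Macrophage genes stood lower in C6KO eWAT. Of 45 tested, 40 had a lower estimate, 38 were lower by unadjusted p (7.82% of all genes) and 1 higher, 38 had no overlap with C6KO lower (11.2% of all genes), DESeq2 called 27 lower, and edgeR called 2, where 0.208% of all genes were called lower. The median log2 fold change was -0.66, and -0.47 without WT 2. Cd72, a receptor of macrophages and B cells, fell from 116, 129 and 104 CPM to 42.3, 60.6 and 60.3 CPM (-1.10, SE 0.152, adjusted p = 0.0342). The defining genes Adgre1 (-0.57) and Csf1r (-0.55) had no overlap and were not called (adjusted p = 0.0655 and 0.0741), and Cd68 stood at -0.28. Genes of lipid-associated macrophages, the cells that gather around dying adipocytes, had no calls by edgeR or DESeq2 among 21, 4 lower and 1 higher by unadjusted p, and a median of -0.14, with Trem2 at -0.42 and Gpnmb at 0.11.

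Mast cell genes had the lowest median, -1.09, and 5 of 19 fell, where 0.208% of all genes were called lower. By unadjusted p, 15 of the 19 were lower (7.82% of all genes) and none higher, and DESeq2 called 11 lower. Cpa3, the carboxypeptidase of mast cell granules, had 72.3, 65.4 and 47.6 CPM in WT and 21.6, 24.0 and 33.2 CPM in C6KO (-1.23, SE 0.201, adjusted p = 0.0436). Cma1, a chymase, fell from 70.8, 67.5 and 46.3 CPM to 20.8, 31.7 and 30.04 CPM (-1.16), and the tryptase Tpsab1 from 82, 92 and 47 counts to 17, 21 and 22 (-1.87). Mrgprb1 (-1.24) and Il1rl1, the receptor of interleukin-33 (-0.91), were the other 2. The tryptase Tpsb2 and the chymase Mcpt4 had values close to these (-1.09 and -1.16) and adjusted p-values of 0.0527. Kit and Gata2, which other cells also express, stood at -0.25 and 0.22. The summed level was 681 to 848 CPM in WT and 445 to 515 CPM in C6KO. With total counts as the only scaling none of the 5 was called.

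Lymphocyte and interferon genes varied widely between libraries of 1 genotype. None of 37 T, NK and B cell genes was called by edgeR, 10 were lower by unadjusted p and DESeq2 called 7 lower, with Cd3e at 4.66, 19.0 and 11.4 CPM in WT and 3.06, 1.61 and 10.3 CPM in C6KO, and the B cell gene Cd79a at 27.1 CPM in WT 3 and 42.0 CPM in C6KO 3 but 7.98 CPM or less in the rest. Their median of -0.80 was -2.13 without C6KO 3 and -0.31 without WT 2. Of 51 interferon-induced genes edgeR called none, 18 were lower by unadjusted p and DESeq2 called 6 lower, with a median of -0.56 that was -0.27 without WT 2. The 19 monocyte and dendritic cell genes had no calls by edgeR, 3 lower by unadjusted p, 1 called lower by DESeq2, and a median of -0.98, or -0.40 without WT 2. The MHC class II gene H2-Ab1 was highest in that library, with 632, 2051 and 796 CPM in WT and 363, 559 and 676 CPM in C6KO. Ifng had 5, 25 and 7 counts in WT libraries, against 0, 1 and 5 in C6KO, and Il6 6, 2 and 1 against 3, 0 and 2; both were too low to be tested. Tnf (-0.47, adjusted p = 0.426) and Il1b (-0.22, adjusted p = 0.876) overlapped between the groups. Of 27 chemokines 1 rose, Ccl2, which attracts monocytes, from 21.0, 19.0 and 18.3 CPM to 30.03, 32.2 and 34.5 CPM (0.73, SE 0.118, adjusted p = 0.0432). DESeq2 called 3 of the 27 higher and 3 lower, and 5 were higher and 6 lower by unadjusted p.

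None of 22 inflammasome and pyroptosis genes was called by edgeR, 10 were lower by unadjusted p and DESeq2 called 6 lower, with Casp1 at -0.61 (adjusted p = 0.0749), Gsdmd at -0.62 (adjusted p = 0.113) and Nlrp3 at -1.15 (adjusted p = 0.123). Of 9 caspase genes tested edgeR called Casp6 alone, 3 were lower by unadjusted p, DESeq2 called Casp6 and Casp1 lower, and Casp8 had 0.00.

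Cell cycle genes stood lower as a group. Of 53 tested, 52 had a lower estimate, and 36 were lower by unadjusted p (7.82% of all genes) and none higher. DESeq2 called 15 lower and edgeR 3, where edgeR called 0.208% of all genes lower. The median was -0.48, between -0.60 and -0.37 over the fits without 1 library. Mki67, the proliferation marker, had 91.6, 103.7 and 88.9 CPM in WT and 63.0, 58.4 and 55.7 CPM in C6KO (-0.68, SE 0.106, adjusted p = 0.0419). Top2a, the topoisomerase that untangles replicated DNA, fell from 50.7, 64.4 and 58.5 CPM to 34.4, 39.9 and 34.3 CPM (-0.68), and Cenpe, a kinetochore motor, by 0.94 on the log2 scale. Cenpe lies 5.335 Mb from Casp6 and is counted there too. Which cells of the depot were dividing cannot be read from bulk RNA.

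The promoters of Mki67 and Top2a are shown because both genes fell and the window carries the letters known from cell cycle promoters. Of the 53 genes, 43 matched a promoter by symbol, of which 30 (69.8%) held CCAAT, the element bound by NF-Y, against 37.4% of all promoters of the table and 38.5% of those of genes tested, and 27 (62.8%) held TTTGAA, the core of the cell cycle homology region, against 17.9% and 12.4%. Both were searched on both strands, and a match is a description of letters and not a site. The sequences are RefSeq's from GRCm38.p6, at chr7:135716330-135716629 and chr11:99024140-99024439, both on the minus strand, with CCAAT and TTTGAA or their reverse complements in capitals. Mki67 holds 3 and 2 of them and Top2a 6 and 2.
Mki67: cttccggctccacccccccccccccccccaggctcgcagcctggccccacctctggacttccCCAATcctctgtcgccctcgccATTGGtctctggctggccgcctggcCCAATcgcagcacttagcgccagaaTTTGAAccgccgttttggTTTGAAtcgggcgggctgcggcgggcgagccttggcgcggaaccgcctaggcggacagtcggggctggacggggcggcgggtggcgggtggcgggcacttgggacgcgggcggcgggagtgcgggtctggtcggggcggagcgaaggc
Top2a: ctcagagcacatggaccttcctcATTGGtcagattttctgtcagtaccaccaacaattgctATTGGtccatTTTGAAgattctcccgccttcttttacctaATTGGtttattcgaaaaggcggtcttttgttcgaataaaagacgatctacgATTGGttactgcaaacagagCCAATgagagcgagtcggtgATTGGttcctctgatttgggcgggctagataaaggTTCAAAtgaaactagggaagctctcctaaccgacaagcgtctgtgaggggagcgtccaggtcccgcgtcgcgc

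Transcripts of the liver were present at low levels and higher in C6KO eWAT. Alb, the most abundant secreted product of hepatocytes, had 103, 45 and 127 counts in WT libraries, against 291, 934 and 944 in C6KO (log2 fold change 2.94, adjusted p = 0.0952), and Apoa1 had 16, 5 and 20 against 44, 163 and 155. The summed level of the 44 hepatocyte genes was 122 to 154 CPM in WT and 354 to 381 CPM in C6KO. The sums of the 3 C6KO libraries were close to each other, whereas Alb and Apoa1 were lowest in C6KO 1 by a wide margin. Of the 44 genes, 33 passed the filter on low counts and 5 were called higher: Apob, Ttr, Fga, Serpina1d and Ttpa. Genes at this level can pass that filter through the group in which they are high, so these counts are a description. With at least 10 counts in every library, 11 were tested, 1 was called and their median log2 fold change was 1.16 in place of 2.77, and with total counts as the only scaling 2 of the 33 were called. Fga, a chain of fibrinogen, had 5, 1 and 2 counts in WT libraries, against 17, 46 and 41 in C6KO, a ratio of summed counts of 13.0 (95% exact counting interval 6.34 to 30.8). Ttr, transthyretin, had 5, 1 and 5 counts against 26, 63 and 42 (ratio 11.9, 6.43 to 24.4), and Serpina1d, an α1-antitrypsin, 5, 2 and 4 against 20, 55 and 35 (ratio 9.97, 5.36 to 20.6). The intervals cover counting error only. Apob, the protein of very low density lipoprotein, had 8, 12 and 18 counts against 39, 137 and 80, and Ttpa, the α-tocopherol transfer protein, 27, 33 and 28 against 123, 80 and 107. Hnf4a, a transcription factor of hepatocytes, had 0, 0 and 2 counts against 6, 33 and 16.

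Slc27a2, an acyl-CoA synthetase known from liver and kidney, had the largest increase of all called genes, from 2, 0 and 3 counts to 18, 49 and 57 (ratio 24.7, 10.3 to 77.5), and was counted in the fatty acid uptake and the brown fat lists, where it was the sole brown fat gene called. It too can pass the filter through C6KO alone and was not tested where at least 10 counts were needed in every library. Its rank and its place in these counts are therefore a description. Among the C6KO libraries, C6KO 1 was the lowest for Alb, Apoa1, Apob, Fga, Ttr, Serpina1d and Slc27a2, while Ttpa was highest in C6KO 1. The source of these reads was not tested.

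The promoters of Fga and Serpina1d are shown as examples of genes with liver promoters among the calls. They are RefSeq's from GRCm38.p6, at chr3:83025903-83026202 on the plus strand and chr12:103773584-103773883 on the minus strand. Capitals mark GTTAAT, a half-site of the HNF1 element, which 7.10% of the promoters of the table hold, and TTGCNNAA, both searched on both strands, with 1 match of each in either promoter. Only 26 of the 33 hepatocyte genes tested matched the table, which is under the 80% needed for a share over the list.
Fga: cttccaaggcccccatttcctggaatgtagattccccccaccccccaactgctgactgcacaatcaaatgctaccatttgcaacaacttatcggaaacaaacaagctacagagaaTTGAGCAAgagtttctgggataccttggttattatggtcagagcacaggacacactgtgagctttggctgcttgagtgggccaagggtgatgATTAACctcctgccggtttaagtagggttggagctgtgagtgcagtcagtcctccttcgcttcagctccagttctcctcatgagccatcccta
Serpina1d: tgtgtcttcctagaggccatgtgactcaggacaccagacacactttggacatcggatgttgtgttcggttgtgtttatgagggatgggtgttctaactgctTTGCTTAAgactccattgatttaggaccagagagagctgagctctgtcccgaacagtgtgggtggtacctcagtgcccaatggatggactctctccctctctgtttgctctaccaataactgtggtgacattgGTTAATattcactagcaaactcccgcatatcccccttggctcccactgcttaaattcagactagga

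Lists of other neighbouring tissues held few calls by edgeR. In the epididymis and vas deferens list 24 of 42 genes were at 0 in all 6 libraries, and summed levels were 120 to 213 CPM in WT and 61.9 to 111 CPM in C6KO. The 2 members tested, Cd52 (-0.96) and Adgrg2 (0.83), were not called by edgeR (DESeq2 called 1 of them higher), and Cd52 is also a gene of leukocytes. Of the testis and seminal vesicle list 13 of 25 were at 0, among them Prm2, Tnp1 and Svs4. In the pancreas and gut list 13 were at 0, the lipase Pnlip among them, and the summed level was 48.2 to 55.9 CPM in WT and 72.3 to 80.0 CPM in C6KO. Of its 4 genes tested edgeR called none, 3 were higher and none lower by unadjusted p, and DESeq2 called 2 higher. Of skeletal muscle transcripts, the α-actin Acta1 had 1067, 669 and 1284 counts in WT libraries, against 2786, 2135 and 695 in C6KO, while the muscle creatine kinase Ckm had 4 counts or fewer, Mylpf 16 or fewer and Tnnt3 13 or fewer in every library. The muscle list summed to 132 to 196 CPM in WT and 215 to 335 CPM in C6KO, with no overlap. Of its 17 genes tested, 6 were higher and 1 lower by unadjusted p, and DESeq2 called 5 higher and none lower. Tmem182 was the 1 gene of the muscle list called higher by edgeR (0.95), and it is also expressed in adipocytes. Schwann cell genes (10 tested) and red cell genes (6 tested) had no calls by edgeR or DESeq2 and no member past an unadjusted p of 0.05, and globin and other red cell genes summed to 54.9 to 200 CPM in WT and 86.8 to 470 CPM in C6KO.

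Stress and housekeeping functions held few calls by edgeR, where 0.537% of all genes were called higher and 0.208% lower. Of 29 genes of the unfolded protein and integrated stress response 1 rose, Sesn2, a sestrin that also acts upstream of AMPK (0.78), while Atf4 stood at 0.10 and Fgf21 had 0.758 ± 0.205 CPM in WT and 2.65 ± 0.301 CPM in C6KO (1.79, adjusted p = 0.0571). Among 37 heat shock and antioxidant genes Sod3, extracellular superoxide dismutase, rose from 600, 531 and 637 CPM to 1084, 979 and 899.5 CPM (0.75) and Mgst3 rose by 0.88. Of the 29 and the 37 genes, 10 and 14 were higher by unadjusted p (9.81% of all genes), and 1 and 1 lower (7.82%). DESeq2 called 4 of the 29 and 5 of the 37 higher and none lower. edgeR called none of 28 immediate early genes, 19 clock genes and 37 lysosomal genes. By unadjusted p, 5, 2 and 1 of these were higher and 4, 3 and 6 lower, and DESeq2 called 4 immediate early genes higher and 2 lower, no clock gene and 1 lysosomal gene lower. Of the AMPK subunits Prkaa1 stood at 0.13 and Prkaa2 at 0.43. Of 13 cytochrome P450 genes edgeR called Cyp4a10 alone, with the limit given above for its low counts. Of the 13, 9 were higher and 1 lower by unadjusted p, and DESeq2 called 5 higher and 1 lower.

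Of the 111 called genes, 58 were members of a function list, 39 of them higher and 19 lower. Among the others, Myh15, a myosin heavy chain gene, fell from 76.8, 83.2 and 73.4 CPM to 31.5, 39.6 and 26.6 CPM (-1.26, SE 0.147, adjusted p = 0.0222), Ces1f, a carboxylesterase, rose from 27.6, 16.2 and 20.8 CPM to 67.4, 49.9 and 76.6 CPM (1.59, SE 0.223, adjusted p = 0.0419), and Cfap99 rose from 31, 33 and 26 counts to 84, 74 and 97 (1.503). Ces1d, a carboxylesterase with triglyceride hydrolase activity, was named after its values were seen and rose from 210, 190 and 177 CPM to 503, 347 and 370 CPM (1.08, SE 0.152, adjusted p = 0.0342).

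The effect of C6KO in eWAT was set against that in the other depots in 1 edgeR fit of all 18 libraries over 14175 genes, since a change is particular to eWAT only if the difference between depots passes a test. Against iWAT no gene differed (0 of 14175), although 764 had an unadjusted p below 0.05 and DESeq2 called 1. This count rested on 1 library, as 206 genes differed without iWAT C6KO 3, 195 of them with the more positive effect in eWAT. Against BAT 86 genes differed (0.607%), 76 with the more positive effect in eWAT (0.536%) and 10 with the more negative.

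The genes called in eWAT had like signs in iWAT and mixed signs in BAT. Of the 76 that rose in eWAT and entered this fit, 72 had a positive estimate in iWAT and 44 in BAT, and their medians were 0.83 in eWAT, 0.41 in iWAT and 0.08 in BAT. Of the 27 that fell, 25 had a negative estimate in each of the other depots, with medians of -0.96, -1.27 and -1.43. Both sets were chosen by their values in eWAT, which can enlarge the eWAT medians beside those of the other depots. In 8 of the 76, and in none of the 27, the effect differed between eWAT and BAT by edgeR, where 0.607% of all genes of the fit did. Past an unadjusted p of 0.05 were 52 and 5, beside 1595 of all 14175 genes. As the genes were chosen by their eWAT values, these counts are a description. Rpl34 had log2 fold changes of -5.75, -5.05 and -5.53 in eWAT, iWAT and BAT, and Casp6 had -1.86, -1.52 and -1.51. Among genes that differed from BAT were Lep, the satiety hormone of fat (0.52 ± 0.335 in eWAT, -0.21 ± 0.335 in iWAT and -3.34 ± 0.370 in BAT, log2 fold change ± SE), and Ccl2 (0.72 ± 0.379, -0.22 ± 0.387 and -2.73 ± 0.487). Cldn5, with 1.12 ± 0.403 in eWAT, -0.13 ± 0.396 in iWAT and -0.62 ± 0.408 in BAT, was not shown to differ (adjusted p = 0.915 and 0.226).

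**Figure D5:**
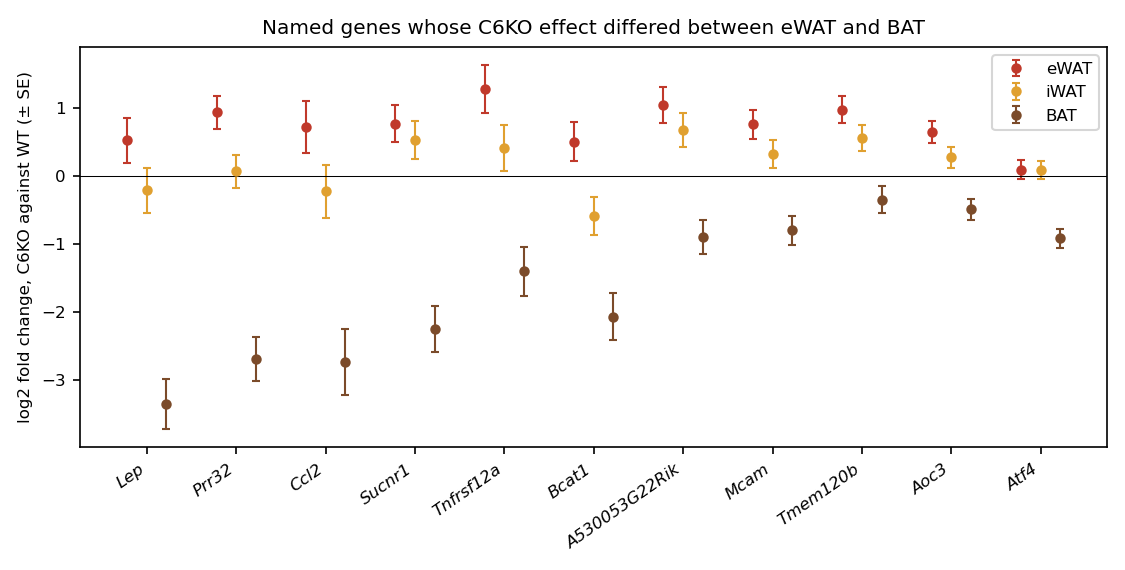
Log2 fold change, C6KO against WT (y axis), with its SE in eWAT (red), iWAT (yellow) and BAT (brown) for the named genes (x axis) whose effect differed between eWAT and BAT, ordered by the size of that difference. In eWAT all estimates are above 0, and in BAT all are below it, from Lep at 0.52 and -3.34 to Atf4 at 0.09 and -0.91. The genes were chosen by this difference, which favours opposite signs.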

How the data were processed

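Poly(A) RNA of eWAT, iWAT and BAT was sequenced on an Illumina instrument. The authors aligned reads to mm10 with STAR at default settings and deposited, for each depot, raw read counts per gene over exons, made with HOMER. Tool versions, the annotation and the strand setting are not given in the sources used here. No value column lacked a sample (0). Libraries held 16717201 to 19139694 counts in eWAT, 16506034 to 19043523 in iWAT and 7803108 to 12428683 in BAT, and counting intervals cover counting error only.

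Counts were filtered by filterByExpr, scaled by TMM and tested with the robust quasi-likelihood test of edgeR 4.0.16 (limma 3.58.1, R 4.3.3) on the 6 eWAT libraries, with Benjamini-Hochberg adjustment over 14889 genes of 25124 listed. CPM are counts divided by the TMM-scaled library size, except in the check of depot labels, where the total counts of each library were used. Depots were compared by interaction terms in 1 fit of 18 libraries, over genes that list the same transcript in all 3 tables (22505 before filtering), at an adjusted p below 0.05. Alternatives were DESeq2 1.42.0, its size factors, total counts, other filters, a replicate block, all 18 libraries in 1 fit, and leaving out each library. The scripts were tested on simulated counts. Promoters came from RefSeq's table, matched by symbol.

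Named genes were Casp6, the 10 called genes that changed most in each direction (mean CPM 1 or above), called members of the lists, the first genes of each list, called genes within 10 Mb of Casp6, and Tnf, Il6, Il1b, Ifng, Ucp1, Cox4i1, Ndufv1, Pnpla2, Pparg and Sp1. Other genes named were chosen after their values were seen. The lists and members were chosen with earlier results of these data known. Some genes that this rule covers are not reported here.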

Additional observations from a re-analysis of the deposited data

Results flagged for a closer look

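The effect of C6KO differed between eWAT and BAT in 86 genes by the interaction term of edgeR over the 18 libraries. The differences below are eWAT minus BAT on the log2 scale, for named genes and genes called in eWAT. BAT libraries held fewer counts than eWAT libraries (7803108 to 12428683), and the part of depth in these differences was not tested.

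The largest of them were in Lep, with 3.87 (adjusted p = 0.00133), and Prr32, with 3.62 (adjusted p = 0.000457). Sucnr1, the succinate receptor, differed by 3.01 (adjusted p = 0.00351). All 3 passed the threshold under each of 16 alternatives. In BAT the estimates were -3.34 for Lep, -2.68 for Prr32 and -2.24 for Sucnr1, and in eWAT 0.52, 0.93 and 0.77, so most of each difference lay in the BAT estimate.

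Ccl2 differed by 3.45 (adjusted p = 0.0171, passing under 12 of 16 alternatives), Tnfrsf12a, the receptor of TWEAK, by 2.67 (adjusted p = 0.0219, 9 of 16), and Bcat1, a branched-chain aminotransferase, by 2.57 (adjusted p = 0.0136, 14 of 16). A530053G22Rik differed by 1.94 (12 of 16), Mcam by 1.55 (9 of 16), Tmem120b by 1.32 (8 of 16), Aoc3, an amine oxidase of adipocytes and vessels, by 1.14 (10 of 16) and Atf4 by 1.01 (9 of 16). Lep, Bcat1 and Atf4 were not called in eWAT alone.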

How the results depend on the processing

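Counts of called genes (80 higher, 31 lower) were 429 and 189 with DESeq2, 224 and 97 with no filter on low counts, 39 and 28 scaled by total counts, and 1 and 3 with all 18 libraries in 1 fit. Without 1 library they ranged from 0 to 254 and from 2 to 93. No called gene changed direction under any alternative in which it was tested. Changes of direction in genes that were not called were not counted. With the replicate number as a block the counts were 298 and 116, but same-numbered libraries correlated at 0.161, -0.104 and 0.159, so the numbers were not taken as pairs. Casp6 ranged from -1.98 to -1.69 without 1 library, with adjusted p = 0.0645, 0.0828 and 0.0939 without WT 1, WT 2 and WT 3 (-1.89, -1.76 and -1.89). Genes differing from iWAT numbered 0, or 1 with DESeq2 and 0 to 206 without 1 library. Those differing from BAT numbered 86, or 338 with DESeq2 (284 more positive and 54 more negative in eWAT) and 28 to 111 without 1 library. The cause of these shifts was not tested, beyond the smaller number of samples in the fits without a library. Genes under about 10 counts are limited by counting error.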
